A study of Mus musculus with 2 samples.

Results

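The genes described here are 4 tryptases and related serine proteases, Tpsb2, Tpsab1, Tpsg1 and Prss34, and 2 zinc metallocarboxypeptidases, Cpa3 and Cpb1. They were chosen by symbol, and all 6 were found among the 32285 genes of a single-cell RNA sequencing library of cultured mouse aortic colonies. The labels describe 2 C57BL/6J mice, male and 12 weeks old, whose aortas were dissociated. The cells were cultured for 14 days in methylcellulose, colonies of the macrophage type (CFU-M) were dispersed, and viable cells were sorted with DAPI. Suspensions carried MULTI-seq tags, lipid-anchored DNA barcodes that let several suspensions share 1 droplet run, and the matrix holds 3 such tags named Cafum, Matrigel and Macrophages. What each suspension was is not given. The labels name no transgene, treatment or knockout.

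Of 34813 barcodes, 30755 were kept as cells, with a median of 12728 unique molecular identifiers (UMIs, each marking 1 captured RNA molecule). The cells fell into 19 clusters, made without the 6 genes and without any cell type marker. The label of macrophage colonies did not describe most of them: 22131 cells (72.0%), in 7 clusters, were mast cell-like by 8 markers including Kit, Fcer1a, Cma1 and Mcpt4, against 5541 fibroblast-like and 1770 macrophage-like cells. These are called mast cells, fibroblasts and macrophages below. In mast cells Csf1r stood at 2.30 CPM, UMIs of a gene per 1000000 gene UMIs, and C1qa at 12.1 CPM, against 568 and 2402 CPM in macrophages. The sex label was not matched either. Of 20201 mast cells thinned to 6000 UMIs, 10490 (51.9%) had a UMI of Xist, the RNA of the inactive X chromosome, and none of a Y-linked gene, while 2315 (11.5%) had the opposite. Whether these cells came from the 2 labelled animals was not tested. There was 1 library, so no difference below has a replicate check, no test was run, and every interval (95%, exact) covers counting error only.

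Tryptases are trypsin-like serine proteases that mast cells store in secretory granules as complexes with heparin carried by the proteoglycan serglycin, and release on degranulation. Carboxypeptidases of the A type remove hydrophobic residues from the end of a peptide chain, and those of the B type remove basic ones. In mice, Tpsb2 encodes Mcpt6, the main tryptase of connective tissue mast cells, Tpsab1 encodes Mcpt7, a tryptase that C57BL/6 mice are known to lack as a protein, and Tpsg1 encodes a tryptase with a transmembrane anchor. Prss34 encodes Mcpt11, known mainly from basophils and from some mast cells. Cpa3 is the mast cell carboxypeptidase of the same granules, known to degrade peptides such as endothelin and neurotensin. Cpb1 is best known as the pancreatic carboxypeptidase B. Mrgprb1, used below to split the mast cells, is one of the Mas-related receptor genes, a family whose member Mrgprb2 mediates IgE-independent activation of mouse connective tissue mast cells.

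The 6 genes lie at 2 loci. On chromosome 17 (GRCm38, GENCODE vM21 gene annotation), Prss34 spans 25298394 to 25300165 on the plus strand, Tpsab1 spans 25343245 to 25345562 on the minus strand, Tpsb2 spans 25366305 to 25369098 on the plus strand and Tpsg1 spans 25369273 to 25374442 on the plus strand. Tpsb2 and Tpsg1 lie head to tail, with 174 bp between the end of one and the start of the other. Tpsab1 and Tpsb2 are 20742 bp apart. Tpsab1 is listed as protein coding by GENCODE and as a transcribed pseudogene in the RefSeq table. On chromosome 3, Cpa3 spans 20215620 to 20242181 and Cpb1 spans 20248264 to 20275733, both on the minus strand, with 6082 bp and no annotated gene between them. Tpsg1 is overlapped by Cacna1h on the opposite strand and Cpa3 by Mir7007 on the same strand. The longest run shared by a Tpsb2 and a Tpsab1 transcript was 39 bases, and neither the 6 pairs of tryptase genes nor the pair of Cpa3 and Cpb1 shared a stretch of 90 bases.

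The bases upstream of the start site of 4 members are shown because all 4 are genes of the mast cells described below and each holds the motif GATAA, the core bound by GATA factors. They are taken from the RefSeq table (GRCm38.p6), which matched 4 of the 6 members. They run 5′ to 3′ on the strand of the gene and end at the base before the start site, with GATAA in capitals. For Prss34 the window is chr17:25298144-25298393 (plus), for Cpa3 chr3:20242182-20242431 (minus) and for Cpb1 chr3:20275734-20275983 (minus), each of 250 bases. For Tpsg1 it is chr17:25369099-25369272 (plus), the 174 bases between the end of Tpsb2 and the start of Tpsg1.
Tpsg1: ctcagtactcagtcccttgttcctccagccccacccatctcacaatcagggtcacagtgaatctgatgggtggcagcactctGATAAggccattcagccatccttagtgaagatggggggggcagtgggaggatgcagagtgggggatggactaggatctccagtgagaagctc
Prss34: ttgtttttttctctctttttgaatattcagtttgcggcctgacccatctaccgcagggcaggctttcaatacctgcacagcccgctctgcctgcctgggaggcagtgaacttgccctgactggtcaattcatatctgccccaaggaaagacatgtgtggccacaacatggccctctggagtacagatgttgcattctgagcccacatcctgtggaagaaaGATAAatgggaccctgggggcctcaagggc
Cpa3: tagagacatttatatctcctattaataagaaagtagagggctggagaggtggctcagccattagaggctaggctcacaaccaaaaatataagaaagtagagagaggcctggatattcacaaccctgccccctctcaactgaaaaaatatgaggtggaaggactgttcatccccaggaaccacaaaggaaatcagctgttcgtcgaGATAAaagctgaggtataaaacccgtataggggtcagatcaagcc
Cpb1: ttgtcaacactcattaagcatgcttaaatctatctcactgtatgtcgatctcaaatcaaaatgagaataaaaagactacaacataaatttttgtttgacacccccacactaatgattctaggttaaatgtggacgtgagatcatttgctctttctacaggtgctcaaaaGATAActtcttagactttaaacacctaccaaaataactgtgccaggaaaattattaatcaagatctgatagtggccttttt

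GATAA was searched on both strands of 250 bases before each of 32851 RefSeq start sites and was found at 22.6% of them. Each of the 4 members held it 1 time on the strand of the gene, at 92 to 88 bases before the start for Tpsg1, 30 to 26 for Prss34, 45 to 41 for Cpa3 and 81 to 77 for Cpb1. Of 5 further motifs, CANNTG (the E-box) was in 3 of the 4 windows and at 66.2% of all starts, and TATAAA was in the window of Cpa3 alone among the 4 and at 12.4% of all starts. CATTTG, an E-box form and so a part of the CANNTG matches, was in that of Cpb1 alone and at 12.0% of starts. CACGTG, another E-box form, and TGACTCA were in none of the 4, and at 6.02% and 4.46% of starts. A match is a string of letters and says nothing of binding.

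In mast cells the 6 genes covered a wide range of levels. Since the 3′ kit counts molecules, UMI levels of different genes are compared without division by length. Cpa3 was the highest at 17884.5 CPM (17869.4 to 17899.6), next to Cma1, the mast cell chymase, at 21369 CPM and above Mcpt4 at 10403 CPM. Tpsb2 followed at 5884 CPM (5875 to 5893) and Tpsg1 at 575 CPM (572 to 578). The other 3 lay far lower. Tpsab1 stood at 40.8 CPM (40.1 to 41.5), Prss34 at 38.2 CPM (37.5 to 38.9) and Cpb1 at 28.3 CPM (27.7 to 28.9). No interval overlapped that of the next gene in the order. Among 7 mast cell clusters, however, Tpsab1, Prss34 and Cpb1 stood in different orders, so their order holds for the sum of the cells and not for each cluster.

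Detection followed the level for all but Prss34. With each cell thinned to 6000 UMIs, Cpa3 had a UMI in 100% of mast cells (99.98 to 100), Tpsb2 in 99.98% and Tpsg1 in 91.0% (90.6 to 91.4). Tpsab1 was detected in 17.3% (16.8 to 17.8), Cpb1 in 14.6% (14.2 to 15.1) and Prss34 in 7.62% (7.26 to 7.99) of mast cells. Without thinning these shares were 94.5% for Tpsg1, 28.8% for Tpsab1, 25.8% for Cpb1 and 10.2% for Prss34. Prss34 thus matched Tpsab1 in level and not in the share of cells. A median mast cell held 108 Cpa3 UMIs (10th to 90th percentile 68 to 163), 36 Tpsb2 UMIs (16 to 67) and 3 Tpsg1 UMIs (1 to 7).

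The 7 mast cell clusters differed in what led them. Cluster 0 (6968 cells) was led by Nlgn1 and Ifitm1, cluster 1 (4850) by Csrp3 and Slc6a13, and cluster 2 (4031) by Gm4847 and Cacnb4, with Mrgprb1 also among its 10 leading genes. The other 4 were led by genes of the cell cycle: cluster 4 (2542) by Hells and Mcm4, cluster 5 (1931) by Ccnb2 and Cenpa, cluster 7 (1531) by histone genes and cluster 11 (278) by Ube2c and Cenpf. The cycling clusters were also the deeper ones, with median UMIs from 16268 to 23760 against 8454 to 11323 in clusters 0, 1 and 2, and the part of depth in the differences between clusters was not tested.

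Tpsb2 stood at 8176 CPM in cluster 0, 6966 in cluster 1, 6814 in cluster 2, 4044 in cluster 4, 3859 in cluster 5, 3548 in cluster 7 and 3537 in cluster 11. All 3 clusters without cell cycle genes were above all 4 with them, and the highest was 2.31 times the lowest. Cpa3 split the same way, with 19460, 20693 and 19978 CPM in clusters 0, 1 and 2 and 14142 to 16050 CPM in the other 4, a range of 1.46 times. Prss34 did so too, from 42.4, 49.2 and 58.4 CPM in clusters 0, 1 and 2 to 18.0 to 27.8 CPM in the others, a range of 3.25 times and the widest of the 6.

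Tpsg1 did not share that split. It stood at 482 CPM in cluster 0 and 526 in cluster 2, its lowest 2 values, and at 694 CPM in cluster 1 and 690 in cluster 11, its highest, a range of 1.44 times. Tpsab1 was highest in clusters 0 (53.7 CPM) and 4 (53.0 CPM), next in cluster 7 (39.0 CPM), and between 26.3 and 30.4 CPM in the other 4. Cpb1 was highest where Tpsab1 was low, in clusters 1 (48.2 CPM) and 2 (39.3 CPM), and from 17.8 to 28.2 CPM in the other 5. For comparison, Mrgprb1 ranged 18.7 times and Ctsg (cathepsin G) 16.7 times over the same clusters, while the chymases Mcpt4 and Cma1 ranged 1.22 and 1.71 times.

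**Figure D1:**
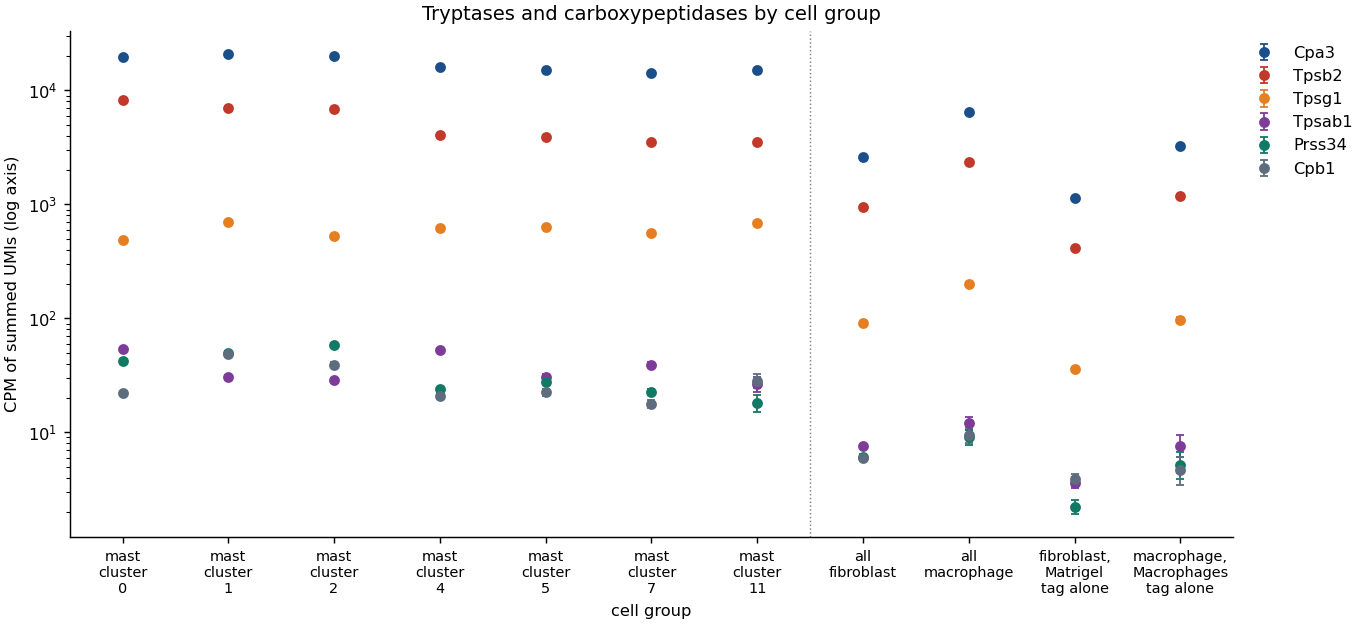
Level of the 6 genes in CPM of summed UMIs (log axis) in each of 7 mast cell clusters and in fibroblasts and macrophages, the latter 2 also with 1 tag alone; bars on the points are exact Poisson 95% intervals, often smaller than the point. Cpa3 and Tpsb2 stand above the other 4 genes in each mast cell cluster, and Tpsab1, Prss34 and Cpb1 change order between clusters.

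All 6 genes were also counted outside mast cells, at lower levels. In fibroblasts Cpa3 stood at 2623 CPM, Tpsb2 at 952, Tpsg1 at 90.2, Tpsab1 at 7.55, Prss34 at 6.09 and Cpb1 at 5.91 CPM. Relative to mast cells these are 0.147 (Cpa3) to 0.209 (Cpb1) times, and the 8 mast cell markers gave 0.142 (Mcpt4) to 0.173 (Slc18a2) times in the same cells. Of the 6 genes, 4 lay within that range, and Tpsab1 (0.185) and Cpb1 (0.209) above it. In macrophages the ratios were 0.236 (Prss34) to 0.397 (Tpsb2), against 0.303 to 0.493 for the markers, with Tpsab1 (0.293) and Prss34 below that range. RNA set free from mast cells, which would bring all their transcripts along in 1 ratio, was not measured by itself in empty droplets, and its part was not tested.

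Cells with only 1 tag gave lower values. Fibroblasts with the Matrigel tag alone had 1133 CPM of Cpa3 and 410 CPM of Tpsb2, against 4966 and 1828 CPM in fibroblasts with more than 1 tag. Macrophages with the Macrophages tag alone had 3268.5 CPM of Cpa3 and 1191 CPM of Tpsb2, against 11122.5 and 4049 CPM in those with more than 1 tag. Droplets that hold cells of more than 1 suspension would carry more than 1 tag, and their part was not tested. In the single-tag fibroblasts the 8 mast cell markers stood at 0.0599 to 0.0875 times their mast cell level. Prss34 lay just below that range at 0.0578, Tpsab1 just above it at 0.0885, and Cpb1 further above it at 0.137 (0.122 to 0.153). In CPM this Cpb1 level was 3.88 against 28.3 in mast cells.

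The share of cells with a UMI at 6000 UMIs per cell was lower outside mast cells for each gene. Cpa3 was detected in 92.9% of fibroblasts and 99.4% of macrophages, but with a median of 4 and 7 UMIs against 108 in mast cells. Tpsb2 was detected in 70.2% and 83.7%, with medians of 1 and 3 UMIs. Tpsg1 was detected in 29.5% and 41.3%, Tpsab1 in 4.08% and 5.31%, Cpb1 in 2.95% and 4.33%, and Prss34 in 2.09% and 2.99%. Detection by itself thus did not mark a mast cell for Cpa3 or Tpsb2. The number of UMIs did for most cells: the sum over the 6 genes had a median of 152 UMIs in mast cells, 5 in fibroblasts and 9 in macrophages. The 10th percentile of mast cells (96 UMIs) was reached by 1.15% of fibroblasts with the Matrigel tag alone, 9.66% of macrophages with the Macrophages tag alone and 48.2% of macrophages with more than 1 tag.

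**Figure D2:**
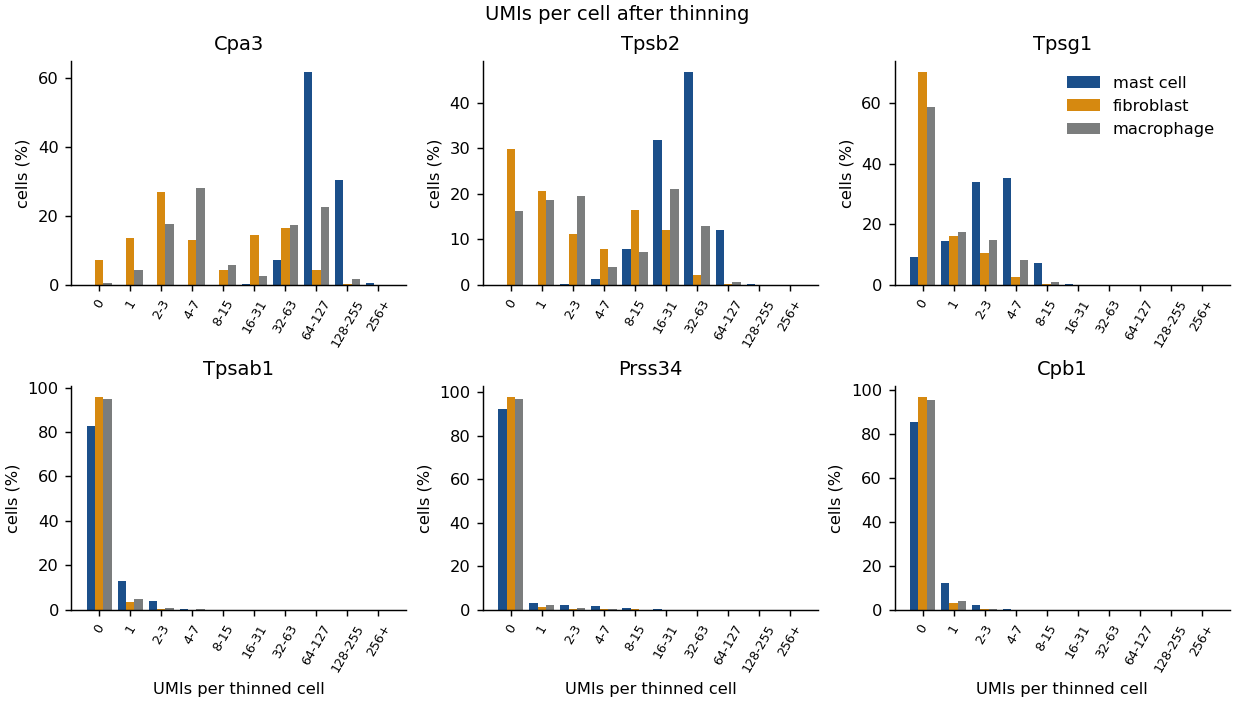
Share of cells (percent) by number of UMIs per cell for each of the 6 genes, at 6000 UMIs per cell, in mast cells, fibroblasts and macrophages. Cpa3 and Tpsb2 separate mast cells from most of the others by the number of UMIs, while Prss34 is at 0 in most mast cells.

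Cells were then grouped by tag. Of cells with 1 tag, 16230 carried Cafum, of which 97.2% were mast cells, 2828 carried Matrigel, of which 2.16% were mast cells, and 2119 carried Macrophages, of which 5.71% were mast cells. A further 2839 cells carried more than 1 tag and 6739 none. Over all cells of a tag, Cpa3 stood at 16939 CPM with the Cafum, 3976 with the Macrophages and 1307 with the Matrigel tag. Tpsb2 stood at 5509, 1388 and 479 CPM, and Tpsg1 at 562, 114 and 41.9 CPM. Tpsab1 stood at 39.9, 9.11 and 4.35 CPM, Prss34 at 35.7, 6.56 and 2.85 CPM, and Cpb1 at 27.3, 5.96 and 4.16 CPM. Each of the 6 genes was highest with the Cafum tag and lowest with the Matrigel tag.

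The Cafum level was 3.97 (Tpsb2) to 5.44 (Prss34) times the Macrophages level, beside 4.52 times for Cma1 and 4.83 times for Mcpt4. It was 6.56 (Cpb1) to 13.4 (Tpsg1) times the Matrigel level, beside 12.4 and 14.6 times for the same chymases. With called doublets kept or with a stricter call of the tags the ratios were lower, down to 2.27 (Tpsb2) to 2.81 (Tpsab1) against the Macrophages tag and 4.28 (Cpb1) to 7.25 (Tpsg1) against the Matrigel tag. All 6 genes were past 2-fold in both comparisons, and so were 14.4% and 15.5% of all genes tested. The median log2 ratio of the 6 genes was 2.16 against the Macrophages tag and 3.59 against the Matrigel tag, and that of all genes tested was 0.14 and −0.04. The order of the tags is that of their mast cell shares given above, but the sizes are not in proportion to those shares. With the Macrophages tag, 22348 of 79437 Cpa3 UMIs lay in cells called mast cells, and with the Matrigel tag 11491 of 113319. A difference between suspensions cannot be told apart from the share of mast cells over all cells.

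Within mast cells the tags differed little for 5 of the 6 genes. Mast cells had 17464 CPM of Cpa3 where the tag was Cafum, 19034 CPM where it was Macrophages, 17583 CPM where it was Matrigel and 19851 CPM where there was none. Tpsb2 stood at 5672, 6396, 6091 and 6890 CPM, and Tpsg1 at 579, 504, 566 and 556 CPM. Tpsab1 stood at 41.1, 43.4, 41.3 and 40.4 CPM, and Cpb1 at 28.1, 33.2, 39.8 and 29.3 CPM. None of these 5 was past 2-fold between tags. Prss34 stood at 36.8 CPM with the Cafum, 15.3 with the Macrophages and 68.9 with the Matrigel tag. The summed level of 8 macrophage markers in the same mast cells was 43.8 CPM with the Cafum, 131 CPM with the Macrophages and 47.4 CPM with the Matrigel tag (where Adgre1 and Fcgr1 were at 0), and that of 6 fibroblast markers 190 CPM, 227 CPM and 376 CPM. Their part in the Prss34 values was not tested. It was the 1 member past 2-fold for Cafum over Macrophages, at 2.40 times (1.52 to 4.05), where 2.05% of all genes tested were as far higher and 1.47% as far lower. For Cafum over Matrigel it was at 0.534 times (0.399 to 0.732), short of 2-fold, where 3.17% of genes were past 2-fold higher and 3.29% lower. These Prss34 values rest on 18 UMIs in 121 mast cells and 45 UMIs in 61 mast cells. A Prss34 UMI was in 6.61% of those with the Macrophages and 11.5% of those with the Matrigel tag, so few cells carry these values. With a stricter call of the tags the first ratio was 0.964 and the second 0.299, past 2-fold lower, so neither is a stable value.

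**Figure D3:**
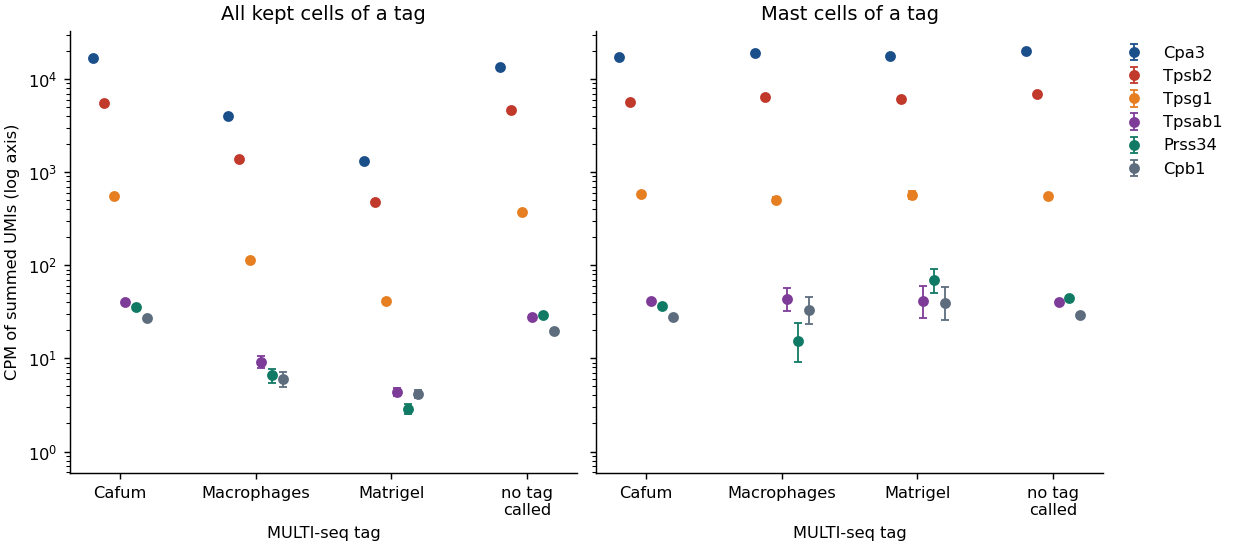
CPM of the 6 genes (log axis) by MULTI-seq tag or with no tag called, over all cells of a tag and over its mast cells only, with exact Poisson 95% intervals. Over all cells each gene is highest with the Cafum tag and lowest with the Matrigel tag, while within mast cells the tags lie close together except for Prss34.

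Mast cells were next split by a UMI of Mrgprb1, which 5485 of 20201 thinned cells had (27.2%, 26.5 to 27.8). In fibroblasts the share was 9.05% and in macrophages 15.9%, so at the level of 1 cell a Mrgprb1 UMI does not by itself mark expression, and the shares of the 4 cycling clusters below lie under that of macrophages. Cells with a Mrgprb1 UMI made up 64.2% of cluster 2, which has Mrgprb1 and Mrgprb2 among its 10 leading genes, 29.1% of cluster 1, 18.2% of cluster 0 and 10.6% to 14.9% of the 4 cycling clusters. They were shallower before thinning (median 10809 against 12928 UMIs), more often had Xist without a Y-linked UMI (73.5% against 43.9%) and had less Mki67, a proliferation gene (33.9 against 86.4 CPM). The summed level of 8 macrophage markers was 52.5 CPM with and 52.2 CPM without a Mrgprb1 UMI, that of 6 fibroblast markers 215 and 209 CPM, and that of 6 basophil markers 2539 and 2167 CPM, with no marker at 0 in either group. The Cafum tag was on 73.9% of them and on 73.2% of the others. The part of depth, cycling and Xist in the differences was not tested, and values within such subsets are given beside them.

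Prss34 was the member that differed most. It stood at 67.7 CPM in cells with and 32.4 CPM in cells without a Mrgprb1 UMI, a ratio of 2.09 (1.97 to 2.21). Cpb1 stood at 35.1 against 29.5 CPM, a ratio of 1.19 (1.11 to 1.28), and Tpsb2 at 7279 against 6299 CPM, a ratio of 1.16 (1.15 to 1.16). Both were higher by less than 1.5-fold. Cpa3 stood at 19253 against 18602 CPM (1.03, 1.03 to 1.04), and Tpsab1 at 38.9 against 39.2 CPM (0.992, 0.930 to 1.06). The interval for Tpsab1 includes equal levels. Tpsg1 alone had its whole interval below 1, at 526 against 598 CPM (0.880, 0.865 to 0.895). Past 1.5-fold higher was 1 of the 6 genes, Prss34, as were 3.14% of all genes tested. Past 1.5-fold lower was none of the 6, and 3.06% of all genes. The median log2 ratio was 0.13 over the 6 genes and 0.03 over all genes.

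Mrgprb1 counts per cell gave an order as well. Prss34 stood at 32.4 CPM in mast cells with no Mrgprb1 UMI, 45.8 CPM with 1, 62.7 CPM with 2 to 4 and 99.5 CPM (93.3 to 106) with 5 or more. Tpsb2 stood at 6299, 6730, 7289 and 7904 CPM over the same 4 groups, and Tpsg1 at 598, 564, 531 and 474 CPM. Prss34 and Tpsb2 were higher, and Tpsg1 lower, at each step. Cpa3, Tpsab1 and Cpb1 had no such order: Cpa3 went from 18602 to 18558, 19255 and 20058 CPM, Tpsab1 from 39.2 to 43.2, 37.3 and 35.8 CPM, and Cpb1 from 29.5 to 35.5, 36.5 and 32.9 CPM.

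**Figure D4:**
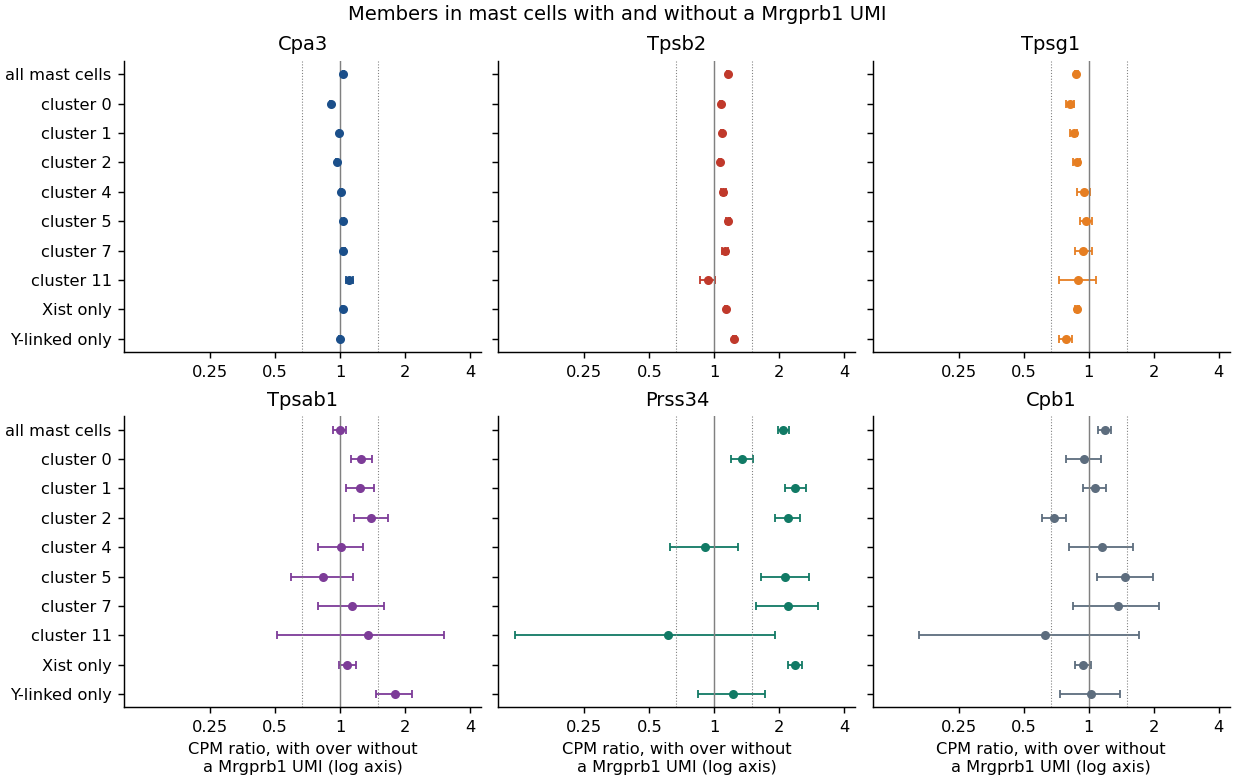
Ratio of CPM (log axis) between mast cells with and without a Mrgprb1 UMI for the 6 genes, over all mast cells, within each mast cell cluster and within cells with Xist or Y-linked UMIs only, with exact 95% intervals and dotted lines at 1.5-fold. Prss34 lies near 2 in 4 of the 7 clusters and Tpsg1 below 1 in all 7.

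**Figure D5:**
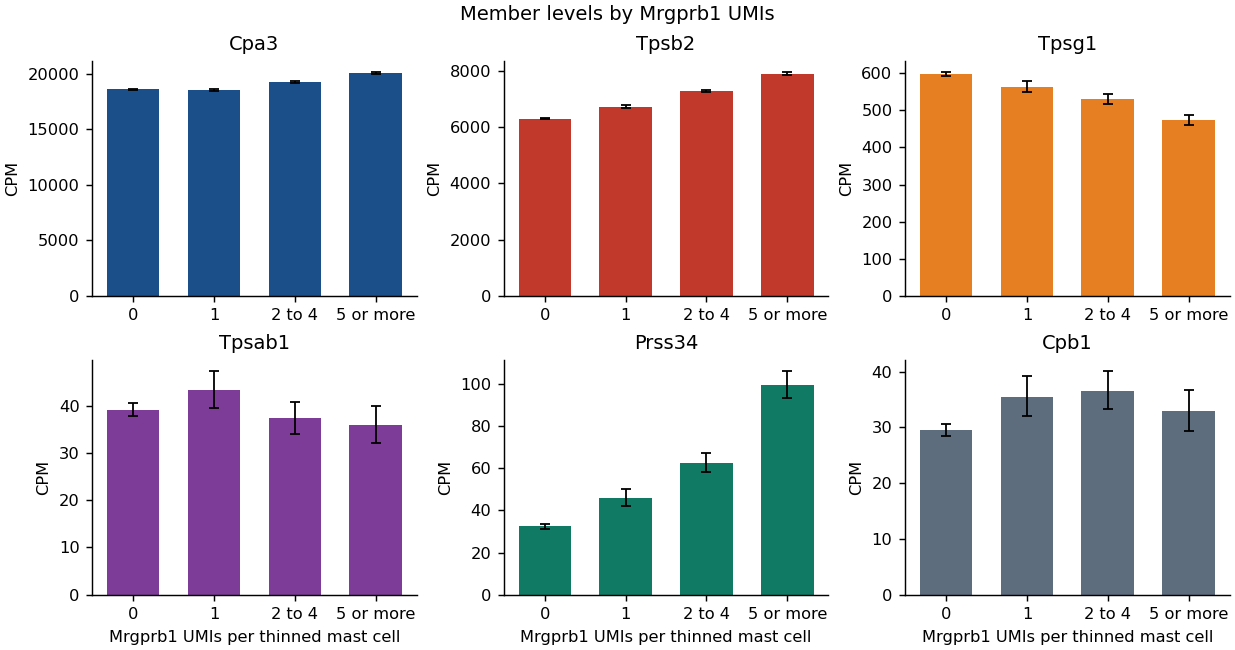
CPM of the 6 genes (linear axis from 0) in mast cells with 0, 1, 2 to 4 and 5 or more Mrgprb1 UMIs, at 6000 UMIs per cell, with exact Poisson 95% intervals. Prss34 goes from 32.4 to 99.5 CPM and Tpsg1 from 598 to 474 CPM.

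Within clusters the Prss34 ratio was 2.37 (2.12 to 2.66) in cluster 1, 2.19 (1.92 to 2.50) in cluster 2, 2.12 (1.64 to 2.74) in cluster 5 and 2.19 (1.55 to 3.03) in cluster 7. It was 1.34 (1.19 to 1.51) in cluster 0. In cluster 4 it was 0.907 (0.621 to 1.29) and in cluster 11 it was 0.607 (0.120 to 1.91), intervals that include equal levels. The ratio of Tpsg1 was below 1 in 7 of 7 clusters, from 0.819 to 0.973. That of Tpsb2 was above 1 in 6 of 7, from 0.932 in cluster 11 to 1.16 in cluster 5. Cpa3 ran from 0.902 to 1.10 over the clusters.

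Tpsab1 and Cpb1 stood otherwise within clusters than over all mast cells. Tpsab1, near equal over all, was higher in cells with a Mrgprb1 UMI in each of the 3 clusters without cell cycle genes, at 62.6 against 50.1 CPM in cluster 0 (interval of the ratio from 1.12 up), 36.4 against 29.6 CPM in cluster 1 (1.23, 1.06 to 1.43) and 29.9 against 21.5 CPM in cluster 2 (1.39, 1.16 to 1.67). Cluster 2, where Tpsab1 was lower than in cluster 0, held 44.1% of the cells with and 9.16% of those without a Mrgprb1 UMI. Cpb1, 1.19 times higher over all, was lower in cells with a Mrgprb1 UMI in cluster 2, at 36.5 against 52.8 CPM (0.691, 0.607 to 0.787), and its intervals in clusters 0 (0.952) and 1 (1.07) include equal levels. For both genes the ratio over all mast cells thus did not stand for the ratio within clusters.

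The Prss34 ratio was 2.14 in mast cells with the Cafum tag alone, 2.10 in cells of at most 12000 UMIs and 1.98 without clusters 5, 7 and 11. That last subset, chosen by the Mki67 level of clusters, still held cycling cluster 4. By Xist the ratio differed between subsets. In cells with Xist and no Y-linked UMI, Prss34 stood at 74.7 against 31.7 CPM, a ratio of 2.36 (2.19 to 2.54). In cells with a Y-linked UMI and no Xist, it stood at 19.5 CPM in 333 cells with and 16.1 CPM in 1982 cells without Mrgprb1, a ratio of 1.22 (0.838 to 1.72), whose interval includes equal levels and lies below that of the first. In the latter cells Tpsab1 was the member past 1.5-fold, at 70.1 against 39.3 CPM (1.78, 1.47 to 2.16). The Tpsb2 ratio was 1.01 (1.01 to 1.02) in cells of at most 12000 UMIs and 1.08 without clusters 5, 7 and 11. The Cpa3 ratio was 0.997 and 0.999 in these subsets. Both genes were closer to equal levels there than over all mast cells. No ratio was computed over clusters 0, 1 and 2 together.

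The cells with Xist alone and those with Y-linked RNA alone differed in the same genes with no regard to Mrgprb1. Prss34 stood at 48.2 CPM in the first and 16.6 CPM in the second, 2.91 times (2.55 to 3.34), and Cpb1 at 38.3 and 23.0 CPM, 1.67 times. Tpsab1 was at 0.743 times. Tpsb2 (1.01), Tpsg1 (0.995) and Cpa3 (1.05) were near equal. Mrgprb1 itself stood at 275 and 50.2 CPM, 5.48 times. Whether these are cells of different animals, cultures or sexes cannot be told from the matrix.

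Among the 3 members of low level, Prss34 had its UMIs the most unevenly spread over mast cells. Its variance over cells was 6.40 times its mean at 6000 UMIs per cell, against 1.48 for Tpsab1 and 1.58 for Cpb1. The abundant Cpa3 (13.6) and Tpsb2 (10.9) had higher values of this ratio, and Tpsg1 a lower one (1.87). Of 1539 cells with a Prss34 UMI, 896 (58.2%) had 2 or more, 368 had 5 or more and 95 had 10 or more, with a maximum of 26. Of 3498 cells with a Tpsab1 UMI, 25.4% had 2 or more and 14 had 5 or more. The 1% of mast cells with the most Prss34 (202 cells) held 40.6% of its UMIs. The same share was 14.6% for Tpsab1, 19.2% for Cpb1 and 15.4% for Mrgprb1, and 2.33% to 3.68% for Cpa3, Tpsb2 and Tpsg1.

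The 368 mast cells with 5 or more Prss34 UMIs were not a cluster of their own. Clusters 0, 2 and 1 held 122, 105 and 89 of them and the cycling clusters 4, 5, 7 and 11 held 20, 18, 13 and 1. Compared with mast cells with no Prss34 UMI, they had 344 against 165 CPM of Mrgprb1 (2.08 times, 1.93 to 2.24), and 42.7% against 26.3% had a Mrgprb1 UMI. They also differed by Xist, with 60.3% against 51.6% having Xist and no Y-linked UMI and 4.35% against 12.0% the opposite, and its part in these ratios was not tested. Tpsb2 stood at 8370 against 6515 CPM (1.28 times), Cpa3 at 1.10 times and Tpsg1 at 0.900 times. The ratios of Tpsab1 (0.883, 0.695 to 1.11) and Cpb1 (1.03, 0.801 to 1.30) had intervals that include equal levels. Since Prss34 is known from basophils, basophil markers were read in the same cells. Mcpt8, the basophil protease, stood at 10.4 against 9.34 CPM (1.12, 0.704 to 1.68), and Cd200r3, Itga2, Il3ra and Cyp11a1 at 1.02 to 1.09 times. Hgf was higher at 2.95 times, from 14 UMIs in those cells. All 6 basophil markers had UMIs in both groups, with a summed level of 2476 against 2265 CPM.

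Within single mast cells the joint detection of the 6 genes was compared with the product of their own shares. Of the mast cells, 62.6% had a UMI of 3 of the 6 genes, 28.4% of 4, 5.34% of 2 and 3.57% of 5, and 28 cells (0.139%) had all 6. Of 15 pairs, 2 had an interval of the joint share that left out the value given by the product of both shares. Both were pairs without Cpa3 or Tpsb2. Tpsab1 and Cpb1 were together in 417 cells where 512 were given by their shares, 0.814 times (0.739 to 0.896). Tpsab1 and Tpsg1 were together in 3056 cells where 3183 were given, 0.960 times (0.929 to 0.992). Tpsab1 and Prss34 were together in 285 cells against 266 (1.07, 0.950 to 1.20), and Prss34 and Cpb1 in 209 against 225 (0.928, 0.807 to 1.06). The pairs with Cpa3 or Tpsb2 could not depart from 1, since nearly every mast cell had both.

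The low value of Tpsab1 with Cpb1 was below 1 in 7 of 7 clusters, from 0.769 in cluster 4 to 0.974 in cluster 0, though only in cluster 1 (0.784, 0.634 to 0.958) did the interval leave out 1. It depended on depth and threshold. Without thinning the ratio was 0.999, and counting only cells with 2 or more UMIs of both genes, after thinning, it was 0.326. At 2 or more UMIs, Tpsab1 was in 4.41% and Cpb1 in 2.42% of mast cells, so few cells carry that last value. Between cells with Xist alone and those with Y-linked RNA alone, Tpsab1 was at 0.743 and Cpb1 at 1.67 times. The part of that difference in their joint detection was not tested. Without thinning, Tpsab1 and Prss34 had a ratio of 1.20 (1.12 to 1.28).

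Mast cells with a Tpsab1 UMI had more Tpsb2, its closest relative at the locus, than those without, at 7737 against 6320 CPM, 1.22 times over all and above 1 within each of the 7 clusters, the lowest at 1.17. They had less Tpsg1, at 499 against 595 CPM (0.840 times), and less Cpb1, at 23.6 against 32.6 CPM (0.725 times). Prss34 was at 1.00 times. Mast cells with a Tpsg1 UMI had less Tpsb2 than those without one, at 6375 against 8488 CPM (0.751 times), although the start of Tpsg1 lies 174 bp past the end of Tpsb2. Within clusters this ratio was 0.814 to 0.972 in 6 and 1.21 in cluster 11, where only 10 cells had no Tpsg1 UMI. The intervals of clusters 5 (0.918 to 1.01) and 7 (0.933 to 1.01) include equal levels. Over all mast cells, those with a Tpsg1 UMI also had less Tpsab1 (0.669 times) and Prss34 (0.657 times), and more Cpb1 (1.20 times). Over single mast cells, the rank correlation of UMIs was 0.369 for Tpsb2 with Cpa3, −0.223 for Tpsb2 with Tpsg1 and 0.142 for Tpsb2 with Tpsab1, and no further from 0 than 0.089 for the other pairs. These cells share 1 library and are no replicates.

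Other granule genes, split by Mrgprb1 in the same way, were mostly near equal. Of 15 listed granule proteases and partners, 13 were tested, none was past 1.5-fold higher and 3 were past 1.5-fold lower in cells with a Mrgprb1 UMI, namely Ctsg (98.8 against 352 CPM, 0.281 times), Mcpt8 (0.511) and Mcpt2 (0.618). Their median ratio was 0.971. Hdc, which makes histamine, was at 1.45 times, Cma1 at 1.15 and Mcpt4 at 0.922 times. Prss34 thus stood above each of these granule genes in its ratio. Mrgprb2 stood at 160.8 against 30.3 CPM, 5.30 times, and of 6 tested receptor genes only the split gene and Mrgprb2 were past 1.5-fold. Of 3 tested protease inhibitors, Serpina3g was past it, at 100 against 56.0 CPM (1.79 times).

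Most neighbours of the tryptases and relatives of the carboxypeptidases were hardly detected in mast cells. All 10 other serine protease genes listed for the tryptase locus and its family, among them Prss28 and Prss29, which lie between Prss34 and Tpsab1, were under 1 CPM. The list of other metallocarboxypeptidases and their inhibitor Lxn had 15 genes in the matrix, 10 of them under 1 CPM in mast cells. Cpd, a membrane carboxypeptidase, stood at 32.8 CPM, above the member Cpb1, Cpe at 7.06 CPM, Cpq at 6.31 CPM and Cpxm1 at 1.16 CPM. The last 3 stood higher in fibroblasts, at 282, 106 and 116 CPM, than in mast cells. Cpq was not particular to fibroblasts, since it stood at 95.3 CPM with the Macrophages tag, near its 111 CPM with the Matrigel tag. Lxn, the latexin inhibitor of A-type carboxypeptidases, stood at 142 CPM in mast cells and was past 2-fold higher with the Cafum than with the Macrophages (3.27 times) and Matrigel tags (2.57 times). F2rl1, the receptor that tryptase is known to cleave, stood at 0.01 CPM in mast cells.

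The genes most like each member across clusters were named by the correlation of log2(CPM + 1) over 13 clusters of at least 100 cells, which share 1 library. Cpa3 was most like Lat2, Lat and Gata1 (r up to 0.997), and Tpsg1 most like Cst7, Serpinb1a and Sec11c (0.996). Tpsb2 was most like Cd200r4, Gm33370 and Il1rl1 (0.990), and Prss34 most like Socs1, Itga2b and A230098N10Rik (0.970). Tpsab1 was most like Zcchc10, Gnai1 and Atp8a2 (0.955), and Cpb1 most like Dhrs1, Spink2 and Krcc1 (0.952). Over the 7 mast cell clusters alone, Cpa3 was most like Fcer1a, Lst1 and Gm2a (0.986), Tpsb2 like Slc41a3, Kcne3 and Grcc10 (0.993), and Prss34 like Apoe, Bhlhe40 and Zfp787 (0.991). Tpsg1 was most like Rab1b, Nt5c and Spcs1 (0.972), Cpb1 like Serpina3g, Dusp23 and Rapsn (0.937), and Tpsab1 like Eid1, Fermt2 and Ide (0.897). Between members over these 7 clusters, r was 0.96 for Tpsb2 with Cpa3, 0.91 for Tpsb2 with Prss34, −0.47 for Tpsb2 with Tpsg1 and −0.59 for Tpsab1 with Cpb1.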

How the data were processed

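Single-cell RNA was counted in 1 gene expression library. The authors deposited raw UMI counts per gene and barcode with no normalization, made with Cell Ranger 7.0.0 on mm10 per the submitters' processing notes, which also name STAR, R 4.1.3 and Seurat 4.1.1. The counting of intronic reads and of strand is not given in the sources used here, and the separate library of tags was not analysed here. The matrix held 593248944 gene UMIs, and the 3 tag features, 21.9% of all UMIs, were kept out of gene totals.

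A barcode passed with 500 or more genes, 1000 or more UMIs and no more than 10% mitochondrial UMIs, as 33964 of 34813 did. Scrublet called 3245 barcodes (9.32%) as doublets, and the 3209 of these that had passed the filters were removed. Cells were clustered with scanpy 1.11.5 and leidenalg 0.10.2 (2000 variable genes, 30 components, 15 neighbours, resolution 0.5) without 260 listed genes, the members and all markers among them. A cluster was named from marker lists: a marker passed at 50 CPM or more and 4 times its lowest cluster, and a name needed at least 3 markers and over 50% of its list. A cluster stayed unnamed where 2 lists tied, where its 10 leading genes held more markers of another list, or where its median UMI count times 3 was under that of all kept cells and no own marker was among those genes. The names are rebuilt here, which by itself can make them differ from the study's. Thinning to 6000 UMIs left out 2980 shallower cells, 1930 of them mast cells. A tag was called at 2 times its background (Matrigel 546, Macrophages 492 UMIs), or 1.4 times for Cafum (1509 UMIs).

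Levels are CPM of summed UMIs with exact Poisson 95% intervals, and shares have Clopper-Pearson intervals. A ratio has the exact interval of a ratio of Poisson sums. The step was checked on simulated Poisson counts. These lack the spread between cells seen here, so the check cannot say whether the intervals are wide enough for it. Genes were tested against a fold, 1.5-fold for Mrgprb1 and 2-fold for tags, among genes at a mean of 5 CPM or more. All 6 members are described, and the genes most like each were the 3 with the highest Pearson correlation among genes at a mean of 50 CPM or more. Members, gene lists and the naming rule were chosen with earlier results of these data known. Alternatives changed the barcode filter, doublets, resolution, tag calls, thinning, UMI minimum and folds. The single-tag values outside mast cells and the subsets of mast cells by tag, Xist, depth and cycling were added after seeing the data.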

Additional observations from a re-analysis of the deposited data

How the results depend on the processing

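Among mast cells, fibroblasts and macrophages each of the 6 genes was highest in mast cells, and by tag highest with Cafum, under all alternatives run, and 1 of the 6 was past 1.5-fold for Mrgprb1 in each. That gene was Prss34, except in cells with a Y-linked UMI and no Xist, where it was Tpsab1. Within mast cells, where no test was possible, the direction of 4 small ratios turned. At resolution 1, Cafum over Macrophages was 1.20 for Tpsb2 and 1.33 for Cpa3, and Cafum over Matrigel 1.31 for Tpsb2. With doublets kept, Tpsb2 over Matrigel was 1.04. The cause was not tested. Mast cells over macrophages moved furthest. The Tpsb2 ratio was 2.52, 9.06 with doublets kept, 4.44 at resolution 1 and 4.94 for macrophages with 1 tag. The Cpb1 ratio moved more, from 2.99 to as high as 12.1.

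Of all genes, 1461 were past 2-fold for Cafum over Macrophages, against 834 with doublets kept, 793 with stricter tags, 192 at 4-fold and 871 at 20 CPM. For Cafum over Matrigel, 1642 were past 2-fold, 722 past 4-fold and 1047 at 20 CPM. For Mrgprb1, 574 were past 1.5-fold, 339 without thinning, 2083 past a lower fold and 239 at 20 CPM. There were 302 in cells of at most 12000 UMIs and 343 without clusters 5, 7 and 11. With all barcodes kept, 6491 cells led by Hbb-bs stayed unnamed and 15952 were mast cells. No paired analysis was possible because there is 1 library. Depth limits Prss34, Tpsab1 and Cpb1 most, which a thinned mast cell holds at under 1 UMI on average.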

Other observations

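A group of cells outside the 7 mast cell clusters also held mast cell markers. Cluster 12 (228 cells) had all 8 of these markers and was led by Calca, but stayed unnamed by the rule on shallow clusters, with a median of 3933.5 UMIs and no mast cell marker among its 10 leading genes. Its Tpsab1 level was 97.8 CPM (82.8 to 115), above that of each mast cell cluster. Cpa3 stood at 13773 CPM and Tpsb2 at 5816 CPM there, and Prss34 at 19.7 CPM (13.3 to 28.1). Cluster 17 (29 cells) was led by the interferon-response genes Isg15 and Rsad2, and stayed unnamed because its leading genes included the erythroid markers Hbb-bs and Hba-a1 and no mast cell marker. Its Prss34 level was 73.6 CPM (50.7 to 103) and its Cpa3 level 21094.6 CPM. Both clusters were defined from these cells, so their values are descriptions.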
